A study of Mus musculus with 6 samples.

Results

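Homeostatic microglia genes are transcripts that mark the resting, surveying microglia of the healthy brain. Such genes were examined here in cortical RNA of 6 and 16 months old mice. The group comprises 10 genes fixed by name, P2ry12, P2ry13, Tmem119, Cx3cr1, Csf1r, Sall1, Siglech, Gpr34, Aif1 and Itgam. All 10 were found among the 38355 genes listed, and all 10 passed the filter on low counts, which 17120 genes passed in all. Whole cortical hemispheres of wild-type C57BL/6 mice were sequenced as polyadenylated RNA, with 3 mice at 6 months and 3 at 16 months, without any transgene or treatment in either group. The housing text among the labels names 3 months for the younger mice, whereas titles, age labels and the paper's methods give 6 months, the age used here. Deposited counts on genes summed to between 29797253 and 46519280 per sample, so that each of the 10 genes was covered by between 172 and 4881 reads in every sample. Levels are given as CPM, that is, counts per 1000000 counts on genes after TMM scaling of the libraries, and a log2 fold change is always 16 over 6 months.

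Microglia are the resident macrophages of the brain. They depend on signals through the receptor encoded by Csf1r, which binds the cytokines encoded by Csf1 and Il34, and they read out fractalkine, the membrane-bound chemokine of neurons encoded by Cx3cl1, through Cx3cr1. P2ry12 and P2ry13 encode purine receptors for ADP that steer microglial processes to sites of injury, and Sall1 encodes a transcription factor that maintains microglial identity. When microglia turn to a disease-associated state, many of these transcripts are known to fall while genes such as Itgax, Clec7a and Spp1 rise. The question of the comparison is whether the homeostatic transcripts differ between adult and aged cortex. In RNA of whole tissue, fewer cells of a type and less RNA per cell cannot be told apart.

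In the GRCm38 build, P2ry12 and P2ry13 are minus-strand neighbours on chromosome 3 (59216272 to 59262871 and 59207892 to 59210882), and both lie inside the gene Med12l, which runs on the other strand. Aif1, which encodes the microglial calcium-binding protein IBA1, lies on the minus strand of chromosome 17 (35170991 to 35176068) and overlaps no other gene. The promoters of the neighbouring pair, and that of Aif1, the only member that passed the test below, are shown as the 250 bases before the RefSeq start (build GRCm38.p6), read 5′ to 3′ along the gene. Capitals mark AGGAAG, a sequence that holds the core recognised by ETS factors such as PU.1, the factor of the myeloid lineage encoded by Spi1. It was searched on both strands.

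P2ry12, chr3:59262986-59263235, minus strand: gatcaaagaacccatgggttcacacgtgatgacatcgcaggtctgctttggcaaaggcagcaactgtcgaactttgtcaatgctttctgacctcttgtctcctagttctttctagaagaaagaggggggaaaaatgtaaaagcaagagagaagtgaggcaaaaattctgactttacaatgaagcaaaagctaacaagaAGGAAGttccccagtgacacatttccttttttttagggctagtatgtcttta

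P2ry13, chr3:59210883-59211132, minus strand: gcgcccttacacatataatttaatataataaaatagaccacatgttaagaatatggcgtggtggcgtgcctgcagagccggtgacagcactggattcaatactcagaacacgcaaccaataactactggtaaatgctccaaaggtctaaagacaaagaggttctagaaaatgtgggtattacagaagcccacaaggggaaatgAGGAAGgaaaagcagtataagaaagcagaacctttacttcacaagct

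Aif1, chr17:35176053-35176302, minus strand: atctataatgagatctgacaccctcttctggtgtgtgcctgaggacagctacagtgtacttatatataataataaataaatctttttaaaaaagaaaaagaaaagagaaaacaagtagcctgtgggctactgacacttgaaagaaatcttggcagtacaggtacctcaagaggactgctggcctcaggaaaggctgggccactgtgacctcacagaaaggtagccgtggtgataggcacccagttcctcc

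AGGAAG begins 52 bases before the start of P2ry12 and 47 bases before that of P2ry13, and is absent from the window of Aif1. The RefSeq windows searched for the members numbered 9, for 7 of the members, 3 of them for Sall1. AGGAAG was found in 4 of the 9 (1 each of P2ry12, P2ry13, Sall1 and Itgam), beside 29.6% of all 32536 windows of this length. The longer sequence GAGGAAGT, which is closer to the preferred site of PU.1, was in 0 of the 9 and in 2.45% of all windows. A match is only a description of these letters, and a missing match is no statement about the factor. Tmem119, Csf1r and Gpr34 were not covered. Csf1r lies on chromosome 18, whose windows were left out of the search among the members.

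As a group, the homeostatic transcripts differed little between the ages. Aif1 fell by 0.43 on the log2 scale at 16 months, and the other 9 genes did not pass the test of edgeR's quasi-likelihood fit at a Benjamini-Hochberg adjusted P of 0.05. Lower calls thus numbered 1 of 10, where 0.888% of all tested genes were called lower, and higher calls 0 of 10, where 0.783% were called higher (1.67% in either direction). The log2 fold change was positive in 5 of the 10 genes and negative in 5, from −0.43 for Aif1 to 0.25 for Csf1r. Its median was −0.041, beside 0.0014 over all tested genes. The 3 samples of 16 months lay all below those of 6 months for Aif1 and Sall1, 2 of 10 genes, beside 11.5% of all tested genes, and all above them for Csf1r, 1 of 10 genes, beside 12.2%. For the other 7 genes the samples of both ages overlapped. The summed level of the 10 genes was between 361 and 372 CPM at 6 months and between 371 and 378 CPM at 16 months. The plot of levels by sample shows these values.

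**Figure D1:**
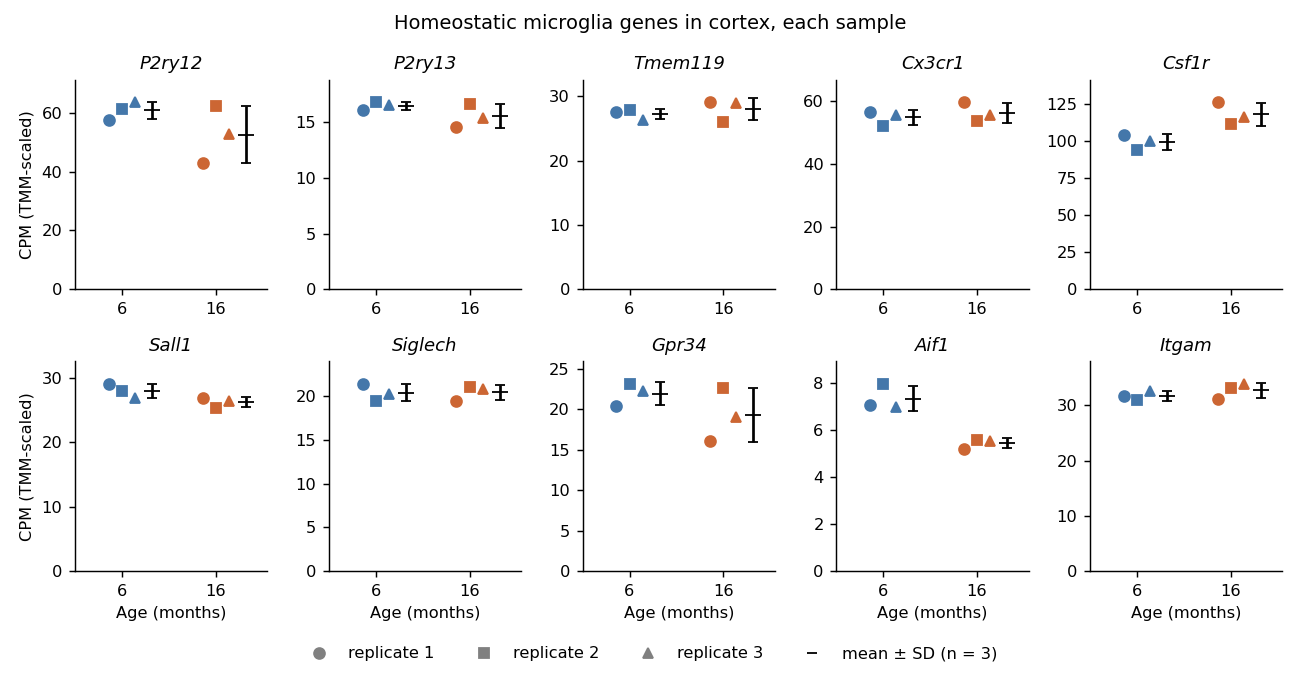
Level of each of the 10 genes in every sample, in CPM after TMM scaling on an axis from 0, against age in months, with symbols for replicates 1 to 3 and the mean ± SD of the 3 samples beside them. The samples of both ages lie apart only for Csf1r, Sall1 and Aif1, and relative to their level, P2ry12 and Gpr34 scatter most at 16 months (highest over lowest sample 1.45 and 1.41).

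Aif1 was covered by 332, 239 and 293 reads in the adult replicates 1, 2 and 3, and by 172, 175 and 189 reads in the aged ones. After scaling, the adult samples had 7.08, 7.97 and 6.98 CPM and the aged samples 5.19, 5.58 and 5.53 CPM. Each aged sample was below each adult sample, and the aged samples were the more uniform. Means were 7.34 ± 0.541 CPM in adult and 5.44 ± 0.215 CPM in aged cortex (SD, n = 3 per age). The log2 fold change of −0.43 had an SE of 0.087 and a 95% interval from −0.62 to −0.23, and the quasi-likelihood test of edgeR gave an adjusted P = 0.0418 after Benjamini-Hochberg correction. The call was close to the threshold. It was lost, with adjusted P between 0.145 and 0.184, when replicate 1, 2 or 3 of 6 months or replicate 3 of 16 months was left out, while the fold change stayed between −0.46 and −0.37 whichever sample was left out.

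Csf1r, on the plus strand of chromosome 18 (61100598 to 61132149), was the only member whose aged samples all lay above the adult ones. Adult replicates 1, 2 and 3 had 104, 93.8 and 99.9 CPM, and the aged ones 126, 111 and 116 CPM. The means were 99.3 ± 5.19 and 118 ± 7.51 CPM (SD, n = 3 each). The fitted difference was 0.25 on the log2 scale (SE 0.064), with a 95% interval from 0.10 to 0.39, and the adjusted P = 0.0926 (same test and adjustment) missed the threshold. Over 15 alternative fits its adjusted P ranged from 0.00078 to 0.376, and 7 of them called it higher. Of the exon bases of Csf1r, 15.1% are shared with Hmgxb3 on the opposite strand. Hmgxb3 itself had a log2 fold change of 0.081 (adjusted P = 0.663, same test and adjustment), and its samples overlapped.

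Aif1 and Csf1r thus stood at opposite ends of the group, as the plot of the age differences shows. The ratio of Csf1r to Aif1 reads within a sample needs no scaling of the libraries. Adult samples had ratios of 14.7, 11.8 and 14.3, and aged samples of 24.3, 19.95 and 20.9. This pair was chosen for its values, so the ratio is a description, and no test of it could count as support. Of the summed CPM of the 10 genes, Aif1 took 2.00% ± 0.180 at 6 months and 1.45% ± 0.0462 at 16 months, and Csf1r took 27.0% ± 1.03 and 31.5% ± 2.28 (SD, n = 3 each).

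**Figure D2:**
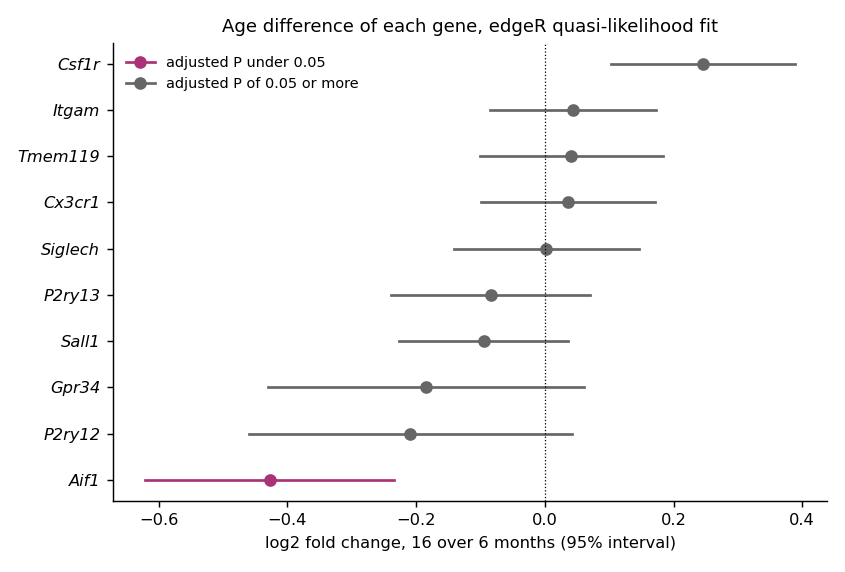
Log2 fold change, 16 over 6 months, of each of the 10 genes (points) with its 95% interval (lines) from edgeR's quasi-likelihood fit. The interval leaves out 0 for Aif1, at −0.43, and for Csf1r, at 0.25, and the latter did not pass the adjusted threshold.

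The purine receptor genes P2ry12 and P2ry13 and the related Gpr34, which encodes a receptor for lysophosphatidylserine and lies inside Cask on chromosome X (13632089 to 13640858), all had negative log2 fold changes. For P2ry12, adult replicates 1, 2 and 3 had 57.6, 61.1 and 63.6 CPM, and the aged ones 42.8, 62.2 and 52.7 CPM. Replicate 1 of 16 months was the lowest of all 6 samples, while replicate 2 of 16 months was as high as the adult samples. Means were 60.8 ± 3.03 and 52.6 ± 9.73 CPM (SD, n = 3 each). The log2 fold change of −0.21 had a 95% interval from −0.46 to 0.042 (adjusted P = 0.374, same test and adjustment).

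As in P2ry12, replicate 1 was the lowest and replicate 2 the highest aged sample of Gpr34. Its level was 20.4, 23.1 and 22.3 CPM at 6 months and 16.1, 22.7 and 19.1 CPM at 16 months, with a log2 fold change of −0.18 and a 95% interval from −0.43 to 0.061 (adjusted P = 0.428, same test and adjustment). P2ry13 was at 16.1, 16.8 and 16.5 CPM at 6 months and at 14.5, 16.7 and 15.4 CPM at 16 months, with a log2 fold change of −0.084 (adjusted P = 0.578, same test and adjustment). In all 3 receptor genes, replicate 2 of 16 months was the only aged sample within or above the adult range. Without that sample P2ry12 and Gpr34 were called lower, at log2 fold changes of −0.35 and −0.31 and adjusted P of 0.0190 and 0.0316, and without replicate 1 of 16 months the values were −0.081 and −0.069 with adjusted P of 0.535 and 0.666. Med12l and Cask, in which these genes lie, share at most 9 exon bases with them and had log2 fold changes of 0.020 and 0.058.

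The scatter of these receptors at 16 months moved with the base composition of the transcripts. P2ry12 (38.6% GC) and Gpr34 (37.1% GC) have the lowest GC content of the 10 genes, and Tmem119 (59.1% GC) the highest. Across the 10 genes, the deviation from the 16-month mean correlated with GC content with r = 0.893 in replicate 1, −0.945 in replicate 2 and 0.222 in replicate 3 (10 genes that share 1 library each, given as a description). At 6 months, r across the 10 genes was 0.661, −0.213 and −0.621 in replicates 1, 2 and 3. Over all tested genes, r was 0.588 and −0.582 in replicates 1 and 2 of 16 months and between −0.130 and 0.160 in the other 4 samples. The SD of log2 CPM at 16 months was 0.27 for P2ry12 and 0.25 for Gpr34, beside a median of 0.13 over all tested genes. With offsets that level the samples for GC content and transcript length, it was 0.081 and 0.053, and the log2 fold changes of P2ry12 and Gpr34 were −0.10 and −0.069. For Aif1 and Csf1r the offsets gave −0.38 and 0.20, with adjusted P of 0.00691 and 0.00147, and Sall1 passed the threshold with them, at −0.14 and an adjusted P of 0.0467. With the offsets 2344 of all 17120 tested genes were called, beside 286 without them.

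**Figure D3:**
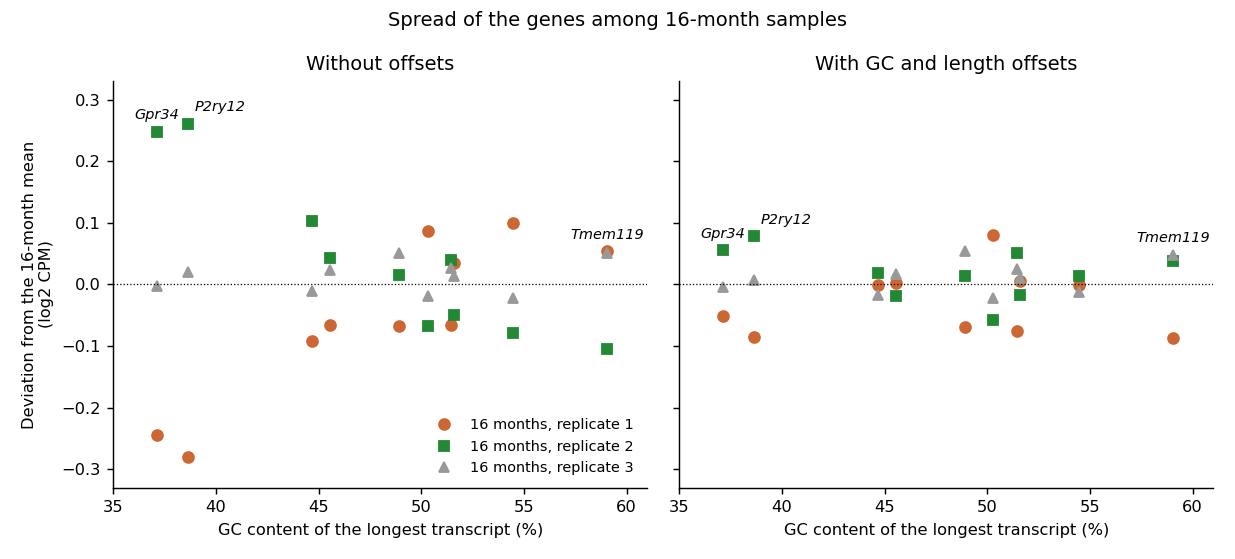
Deviation of each of the 10 genes from its mean over the 3 samples of 16 months (log2 CPM) against the GC content of its longest transcript in percent, with symbols for the 3 samples, without (left) and with (right) offsets for GC content and length. P2ry12 and Gpr34, at the left end, lie farthest from 0 in opposite directions in replicates 1 and 2, and move toward 0 with the offsets.

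The remaining 5 genes had small differences with narrow intervals. Tmem119, a surface protein that separates microglia from blood-derived macrophages (chromosome 5, 113793729 to 113800516), lay between 26.4 and 27.9 CPM at 6 months and between 26.1 and 29.1 CPM at 16 months. This gave a log2 fold change of 0.041 and a 95% interval from −0.10 to 0.18. Cx3cr1, the fractalkine receptor (chromosome 9, 119901616 to 120069879), was at 52.1 to 56.6 CPM and at 53.6 to 59.7 CPM, with a log2 fold change of 0.036 and an interval from −0.099 to 0.17. In both genes the ages overlapped, and the intervals leave room for at most 13.5% more and 6.76% less RNA at 16 months.

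Siglech, a sialic acid-binding surface receptor (chromosome 7, 55768178 to 55778925), lay between 19.5 and 21.4 CPM at 6 months and between 19.5 and 21.1 CPM at 16 months. Its log2 fold change of 0.0023 was the smallest of the group, with a 95% interval from −0.14 to 0.15. Itgam encodes CD11b, the alpha chain of complement receptor 3, which microglia share with other myeloid cells (chromosome 7, 128062640 to 128118491). It lay between 30.9 and 32.7 CPM and between 31.2 and 33.9 CPM, with a log2 fold change of 0.043 and an interval from −0.086 to 0.17. Sall1 (chromosome 8, 89027235 to 89044162) was at 29.0, 27.9 and 26.8 CPM at 6 months and at 26.8, 25.3 and 26.4 CPM at 16 months. Its aged samples lay below all adult ones, by a small margin, and the log2 fold change was −0.095 with an interval from −0.23 to 0.036 (adjusted P = 0.449, edgeR's quasi-likelihood test, Benjamini-Hochberg adjustment). The adjusted P of the other 4 genes was between 0.746 and 0.990.

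Relative to transcript length, P2ry12 and Csf1r were the most abundant members. Dividing CPM by the length of the longest annotated transcript in kilobases gave 25.9 ± 1.29 for P2ry12 and 21.1 ± 1.10 for Csf1r at 6 months (SD, n = 3 each), whose ranges lay apart. At 16 months Csf1r stood first with 25.1 ± 1.60 and P2ry12 second with 22.4 ± 4.15, but their ranges overlapped, and over the length of all annotated exons P2ry12 was first at both ages. At 6 months Cx3cr1 and Tmem119 followed with the same level, 12.2 ± 0.527 and 12.2 ± 0.360, and Gpr34 with 10.5 ± 0.665. Siglech and Aif1, with 8.86 ± 0.420 and 8.39 ± 0.619, overlapped each other, as did Itgam and P2ry13 with 6.78 ± 0.189 and 6.51 ± 0.148. Sall1 was lowest with 5.30 ± 0.206. Aif1 stood at rank 7 at 6 months and at rank 8 at 16 months, where its range overlapped that of P2ry13. The places below rank 5 depend on the length used as well. Over all annotated exons, Siglech ranked 8, Sall1 9 and Aif1 10 at both ages, and P2ry13 and Itgam took ranks 6 and 7 in either order. The plot of levels per length gives all 10 genes.

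**Figure D4:**
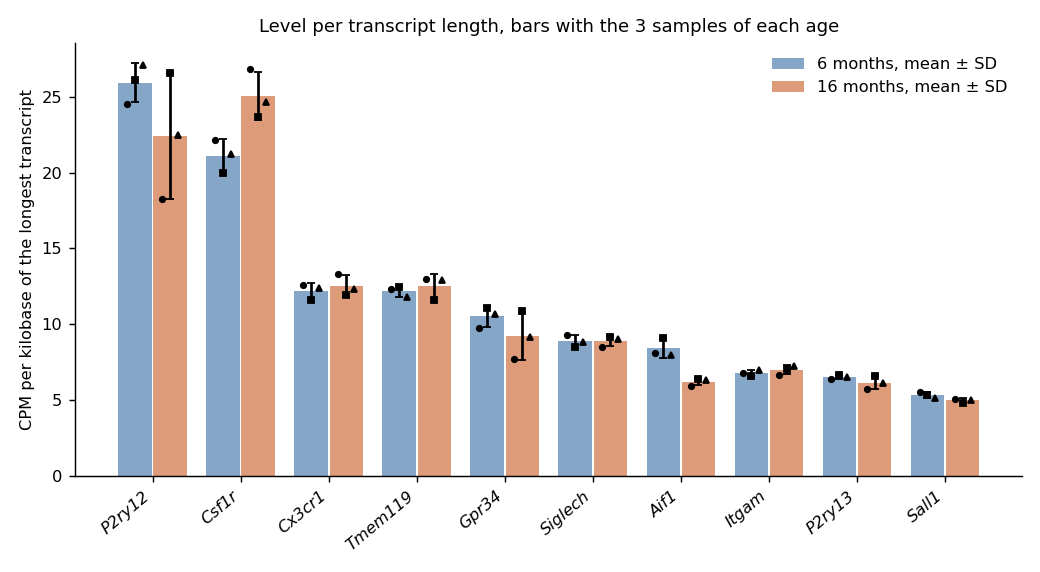
CPM per kilobase of the longest annotated transcript, for the 10 genes in their order at 6 months, with bars for the mean and lines for the SD of 3 samples of each age and symbols for the single samples. P2ry12 and Csf1r stand above the others, and their ranges overlap at 16 months.

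The 10 genes did not vary as a unit from sample to sample. Among the 45 pairs of members, the correlation of their deviations from the mean of each age over 6 samples had a median of −0.045 and ranged from −0.915 (Csf1r and Gpr34) to 0.997 (P2ry13 and Gpr34), and 20 pairs were positive. P2ry12, P2ry13 and Gpr34 deviated together (r between 0.966 and 0.997), as did Cx3cr1 and Csf1r (r = 0.991). With the offsets for GC content and length, r was 0.759 for P2ry13 and Gpr34, 0.709 for P2ry12 and Gpr34, 0.326 for P2ry12 and P2ry13, and 0.518 for Cx3cr1 and Csf1r. All these values rest on 6 libraries and are given as a description. The mean profile of the 10 genes, each scaled over the 6 samples, was lowest in replicate 1 of 16 months, at −0.44, and highest in replicate 1 of 6 months, at 0.32, and the ages overlapped. With the offsets the profile was 0.37, 0.12 and 0.27 in the adult samples and −0.63, −0.049 and −0.093 in the aged ones, which lay apart. Among the genes most like this profile were Wnt16, Cndp1, Itga6, Gm20405, Adamts5, Pi15, Moap1, Tmem106a and Ptger2, with r between 0.974 and 0.993 over 6 samples. The members themselves had r between −0.582 and 0.745 with it. With the offsets these genes had r between 0.396 and 0.964.

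The age difference of the members also went with the length of their transcripts. Aif1 has the shortest longest transcript (875 bases), and Csf1r is among the longest (4701 bases). Across the 10 genes the log2 fold change and the log2 length correlated with r = 0.764, and without these 2 genes with r = 0.377. Over 38 other microglia genes r was 0.343, and over the 16904 tested genes with an annotated length it was 0.0937. These genes share 6 libraries, the relation was looked for after the values were seen, and its part in the calls was not tested. With the offsets the values were 0.685 for the 10 genes, −0.105 for the 8 and 0.252 for the 38.

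The signals that act on these receptors were measured in the same samples. Csf1 and Il34 encode the ligands of the receptor made from Csf1r. Csf1 lay between 23.3 and 24.3 CPM at 6 months and between 19.6 and 21.7 CPM at 16 months. Its log2 fold change was −0.21 with a 95% interval from −0.35 to −0.076 (adjusted P = 0.119, edgeR's quasi-likelihood test, Benjamini-Hochberg adjustment), and its ages lay apart. Il34, the ligand made by neurons, overlapped between the ages and had a log2 fold change of 0.067 (adjusted P = 0.600, same test and adjustment). Cx3cl1, the ligand for Cx3cr1, had 629, 582 and 610 CPM at 6 months and 839, 675 and 755 CPM at 16 months, all above. Its log2 fold change of 0.32 had a 95% interval from 0.15 to 0.49 and an adjusted P = 0.0749 (same test and adjustment). Itgb2, the beta chain that pairs with the product of Itgam, had a log2 fold change of −0.085, and Entpd1, the ectoenzyme that breaks down ATP and ADP, of 0.21, with adjusted P of 0.720 and 0.128. Spi1, which encodes PU.1, lay between 2.62 and 3.75 CPM in all samples, with a log2 fold change of −0.048 (adjusted P = 0.901, same test and adjustment). Tyrobp, the signalling adaptor for receptors such as Siglec-H and TREM2, fell from between 16.5 and 17.6 CPM to between 12.6 and 13.9 CPM, with a log2 fold change of −0.36 (adjusted P = 0.0290, same test and adjustment). Of all 18 ligands and partners in the list, Tyrobp was the only gene called, beside 1.67% of all tested genes.

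Other genes of high expression in microglia were called higher in 0 of 38 and lower in 3 of 38 cases. Over all tested genes these shares were 0.783% and 0.888%. The 3 were Tyrobp, the lysosomal protease gene Ctss and Ly86, which encodes a partner of a Toll-like receptor family member. Ctss was at 92.9, 93.9 and 94.9 CPM at 6 months and at 72.8, 82.1 and 76.5 CPM at 16 months, with a log2 fold change of −0.28 (adjusted P = 0.0397, edgeR's quasi-likelihood test, Benjamini-Hochberg adjustment). Ly86 was at 12.0, 12.1 and 12.6 CPM and at 9.32, 9.99 and 8.73 CPM, with a log2 fold change of −0.39 (adjusted P = 0.0308, same test and adjustment). Like Aif1, these 3 genes lost their call when replicate 1, 2 or 3 of 6 months or replicate 3 of 16 months was left out (0 of 38 called in each of these fits). The median log2 fold change of the 38 genes was −0.040, and 13 were positive. The aged samples lay all below the adult ones for 6 of the 38, beside 11.5% of all tested genes. They lay all above them for 5, beside 12.2%. These 5 were Fcrls, Mertk, Entpd1, Slco2b1 and Vsir, with log2 fold changes between 0.16 and 0.21. Fcrls, a microglial Fc receptor-like gene, had 0.17 (adjusted P = 0.150, same test and adjustment), and Mertk 0.20 (adjusted P = 0.0784).

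Of 17 genes of activated microglia, Itgax, Clec7a, Spp1 and Lyz2 were called lower and 0 were called higher, beside 0.888% and 0.783% of all tested genes. Itgax and Clec7a passed the filter on low counts through the adult samples, where they are high, so their calls add no support. The ages overlapped for 9 of the 17 genes. The aged samples lay all below the adult ones for the other 8, beside 11.5% of all tested genes. The median log2 fold change of the 17 was −0.33, and 15 were negative. Cst7, with 18, 23 and 30 reads at 6 months and 10, 6 and 3 at 16 months, also passed the filter through the adult samples. Because these summaries include Itgax, Clec7a and Cst7, they add no support either. Itgax, which encodes CD11c, was at 0.704, 0.567 and 0.667 CPM at 6 months and at 0.151, 0.191 and 0.0586 CPM at 16 months, or 5, 6 and 2 reads, the last of them under the floor of 3 reads. Lyz2, the lysozyme of myeloid cells, went from 12.9, 12.7 and 13.9 CPM to 5.73, 7.15 and 6.79 CPM. No test compared these genes with the homeostatic ones, and the 2 lists are set side by side only. Among 8 markers of macrophages at the brain's borders, which also express Csf1r, Cx3cr1, Aif1 and Itgam, 0 were called in edgeR's test. An unadjusted P under 0.05 was found for 3 of the 8, beside 17.4% of all tested genes, and their summed level was 31.0 to 32.3 CPM at 6 months and 30.2 to 34.0 CPM at 16 months. The aged samples lay all below the adult ones for Mrc1 and Ms4a7 (log2 fold changes of −0.33 and −0.62), beside 11.5% of all tested genes. They lay all above them for Lyve1 and F13a1 (0.50 and 0.19), beside 12.2%, and overlapped them for the other 4. The summed level of 8 markers of blood leukocytes was 1.88 to 2.60 CPM and 1.96 to 2.44 CPM. Of these 8, only Itgal passed the filter on low counts, and Ly6c2, a monocyte marker, was at 0 reads in all adult samples and at 1 read in each aged sample. The plot of the 4 lists shows the fold changes.

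**Figure D5:**
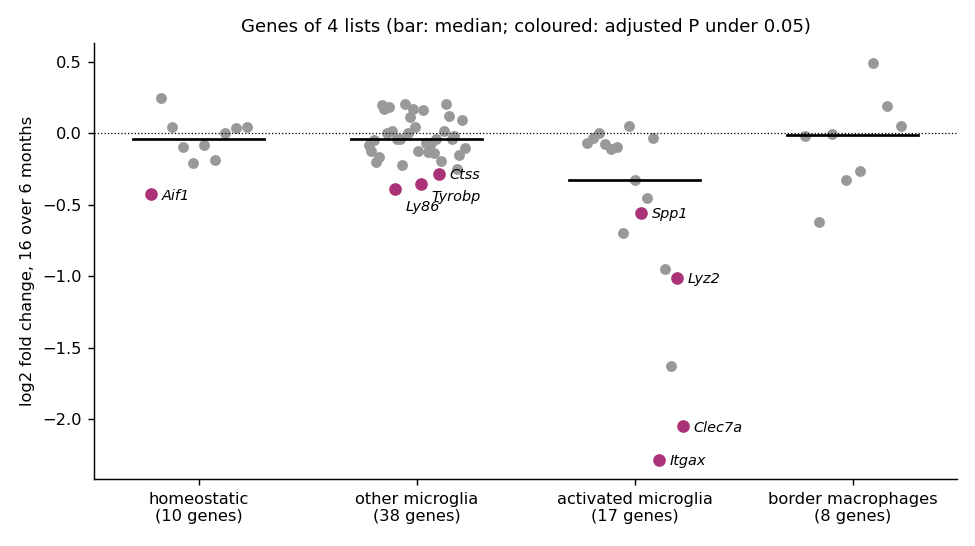
Log2 fold change, 16 over 6 months, of the tested genes of 4 lists, with a bar at each median and coloured, named points for genes with an adjusted P under 0.05. The medians are −0.041, −0.040, −0.33 and −0.012 from left to right, and all named genes lie below 0. Of these, Itgax and Clec7a passed the filter on low counts through the adult samples.

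Markers of neighbouring tissue differed between the ages as well. All 5 red blood cell genes had higher levels in each aged sample, beside 12.2% of all tested genes. Their summed level was 27.3 to 30.8 CPM at 6 months and 44.9 to 50.3 CPM at 16 months. Of the 5, 2 were called higher, beside 0.783% of all tested genes. Sums over the 5 thalamus, 4 dentate gyrus and 4 choroid plexus markers were also higher in all aged samples. Of these markers 3, 3 and 1 were called higher, beside 0.783% of all tested genes. The marker lists were written with earlier results of these data known, so their sums and calls add no support. Of the thalamus genes called, Shox2 had 4 reads in each adult sample. It passed the filter on low counts through the aged samples, so its call adds no support. In the choroid plexus list the gene called was Ttr, and the ages overlapped for the other 3 genes. Of 6 astrocyte markers, Gfap, a filament protein, was called lower (log2 fold change −0.47, adjusted P = 0.0033, edgeR's quasi-likelihood test), beside 0.888% of all tested genes. For 3 others the aged samples lay all above the adult ones, beside 12.2% of all tested genes, without passing the test. The neuron, oligodendrocyte, oligodendrocyte precursor, endothelial and striatum markers had 0 calls each in that test, with 2 of 6, 2 of 6, 1 of 2, 1 of 5 and 0 of 5 genes at an unadjusted P under 0.05, beside 17.4% of all tested genes. The summed level of the 10 homeostatic genes overlapped between the ages by a small margin only (361 to 372 and 371 to 378 CPM). The part of dissection or blood in the values of single genes was not tested.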

How the data were processed

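RNA of 6 cortical samples was sequenced. The deposited values are raw counts per Ensembl gene that the authors made from trimmed paired-end reads, for which their methods name 2-pass STAR alignment to the mm10 genome and HTSeq for counting. The processing notes among the labels name STAR 2.3.0e and featureCounts instead, but the files end with HTSeq's summary of unassigned reads. Reads on no gene (22.0% to 27.7% of uniquely aligned reads) or on several genes (1.42% to 1.57%) were left out. The Ensembl release and the strand setting are not given in the sources used here, and the library kit does not mark strand, so reads from overlapping exons on opposite strands cannot be told apart.

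Of 38355 genes, 36602 were matched by identifier to GENCODE vM21 (GRCm38) for names, positions, GC content and the longest transcript. Counts were analysed in edgeR 4.0.16 (R 4.3.3) with TMM scaling, filterByExpr, quasi-likelihood test and Benjamini-Hochberg adjustment over 17120 genes at 0.05, without covariates. Intervals are 95%, and a prior count of 2 was added for log2 levels. Replicate numbers are shared by the ages but stand for different mice, and deviations of same-numbered samples correlated with r of 0.180, 0.0958 and 0.0351, so the main fit has no block. Alternatives were other scalings and filters, DESeq2 1.42.0, a robust fit, the replicate block, offsets for GC content and length (medians over 20 bins of genes) and each sample left out. Near-identical copies were searched with blastn 2.17.0 (97% identity over 100 bases). Hmgxb3 matched Csf1r, and the readthrough gene Gm49368, which has no row in the count files, matched Itgam. The other 8 members had 0 such matches. On simulated counts for 17120 genes, the test recovered 66% of genes given a log2 change of 0.5 and 16% of genes given 0.25. Named are the 10 members, the ligands and partners fixed in a list, list genes past the threshold, and the 10 genes most like the mean profile, of which 1 is not reported here. Fcrls, Mertk, Slco2b1, Vsir, Trem2, Cst7, 4 macrophage markers and Gfap, Ttr and Shox2 as tissue markers were added after their values were seen. The members and lists were chosen with earlier results of these data known. P-values measure the spread between 3 mice per age.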

Additional observations from a re-analysis of the deposited data

How the results depend on the processing

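The direction of Aif1 (lower) and Csf1r (higher) was kept in all 15 alternatives, with Aif1 called in 11 and Csf1r in 7. Since the ages lay apart for both genes, leaving out 1 sample could hardly turn the direction. All fits draw on the same 6 libraries. Over all 15, the median log2 fold change of the 10 homeostatic genes lay between −0.056 and −0.013. That of the 38 other microglia genes lay between −0.072 and −0.0070. Tested genes called numbered 286 of 17120 in the main fit, and 783 with the replicate block. They numbered 648 without a filter on low counts and 470 with DESeq2's Wald test. Of the same 17120 genes, 2344 were called with offsets for GC content and length, and 3168 with offsets and the replicate block. Homeostatic genes called numbered 1, and 2 with no filter, with DESeq2 and with the replicate block (Aif1 and Csf1r in each), and 3 with either form of the offsets, where Sall1 was called lower too. The other microglia genes called numbered 3, and 8 with either form of the offsets. Of the 8, Ctss, Ly86, Tyrobp and Trem2 had negative log2 fold changes in the main fit. Entpd1, Fcrls, Mertk and Vsir had positive ones. With 1 sample left out, the counts ranged from 48 to 2211 for all genes, from 0 to 4 for the homeostatic genes and from 0 to 7 for the others, with the highest values of the first 2 when replicate 2 of 16 months was left out. Siglech, close to 0, turned negative with upper quartile factors (−0.013) and without a filter (−0.0024), and ranged from −0.027 to 0.040 with 1 sample left out. Cx3cr1 ranged from −0.0097 to 0.068 in those fits. The cause of these shifts was not tested. Of the 6 samples, 5 correlated best with the sample of their own number, a hint from the data only, since the numbers stand for different mice. In the simulated counts, over genes of all levels, 16% of genes given a log2 change of 0.25 were recovered with 3 mice per age. The share for genes read as deeply as the members was not computed.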
